A study of Mus musculus with 6 samples.

Results

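To examine whether long-term ingestion of PLDP alters the expression of the genes of AMPA-type glutamate receptors in the brain, the 4 genes of the pore-forming subunits (Gria1, Gria2, Gria3 and Gria4) and 6 genes of auxiliary subunits (Cacng2, Cacng3, Cacng8, Cnih2, Cnih3 and Shisa9) were taken from a whole-brain RNA-seq data set by their Ensembl identifiers. These are 10 of 60354 features in the count files, and all 10 passed the filter for low counts. PLDP is a protease-treated decomposition product of porcine liver. The control mice (mice 2, 5 and 10) received a modified AIN-93M diet with adjusted calories over 16 weeks, and the PLDP mice (mice 17, 22 and 26) received such a diet in which PLDP made up 20% over the same 16 weeks. All were C57BL/6NCrSlc males that started the diets at an age of 16 weeks, and all went through the same series of behavioral tests, during which the PLDP diet was not given, before RNA was taken from the brain. Each library is 1 whole brain of 1 mouse, so levels are averages over all brain regions and cells, and nothing in the values assigns them to a region.

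AMPA receptors are the channels that carry most of the fast excitatory current at glutamatergic synapses. Each channel is a tetramer of the GluA subunits encoded by the Gria genes, and its number at the synapse is changed during learning. The subunits reach the synapse with partner proteins. TARPs (transmembrane AMPA receptor regulatory proteins, encoded by the Cacng genes) bind the pore and anchor it to postsynaptic scaffolds, cornichons (Cnih) assist its export from the endoplasmic reticulum and slow its gating, and Shisa proteins modify its desensitization.

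The libraries held from 18797061 to 23938729 counts on genes, and each of the 10 genes had between 825 and 12969 counts in every mouse. At this depth the standard deviation within a diet was between 1.17% and 9.54% of the mean, a spread that holds counting error as well as differences between the mice and their preparation. Of the pan-neuronal markers, 7 were tested, none was at 0 and 1, Nefl, was lower (log2 fold change -0.091). Their summed level was 5868 to 6053 CPM in control and 5848 to 6005 CPM in PLDP mice. CPM is the count of a gene scaled to its library total after TMM. Without PLDP mouse 17, 2 of the 7 markers were lower. Over all features tested, 3.69% were lower with all mice and 5.69% without mouse 17. PLDP mouse 17 stood apart from the other PLDP mice, since its counts differed from those of mice 22 and 26 by chi-square values of 5.33 and 5.03 per feature, against 2.44 between mice 22 and 26 and 2.36 to 3.12 between control mice.

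With all 6 mice, the members that were called as different between the diets were the 3 TARP genes among them. The members were chosen with earlier results of these data known, so their count is a description and was not tested. At an unadjusted p under 0.05 in edgeR's quasi-likelihood test, 3 of the 10 genes were higher in the PLDP mice, Cacng2, Cacng3 and Cacng8, and 0 were lower. None of the 10 passed 0.05 after Benjamini-Hochberg adjustment over all 18580 features tested, and the smallest adjusted p was 0.367. Over all features tested, 8.6% were called at the same unadjusted threshold, 4.91% higher and 3.69% lower, and 0.0323% passed after adjustment. The PLDP mice lay above all control mice in 3 members and below them in 0, where the diets did not overlap in 14.2% of all features tested, with the PLDP mice above in 7.29% and below in 6.9%. The median log2 fold change (PLDP minus control) of the 10 genes was 0.048, beside -0.00062 over all features tested. In whole-brain RNA, fewer cells of a type and less RNA per cell cannot be told apart. Without PLDP mouse 17, 3 of the 10 were again higher, but these were Gria2, Cacng2 and Cacng3, and over all 18848 features tested in that fit 6.86% were higher and 5.69% lower. The median of the 10 genes was then 0.073.

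**Figure D1:**
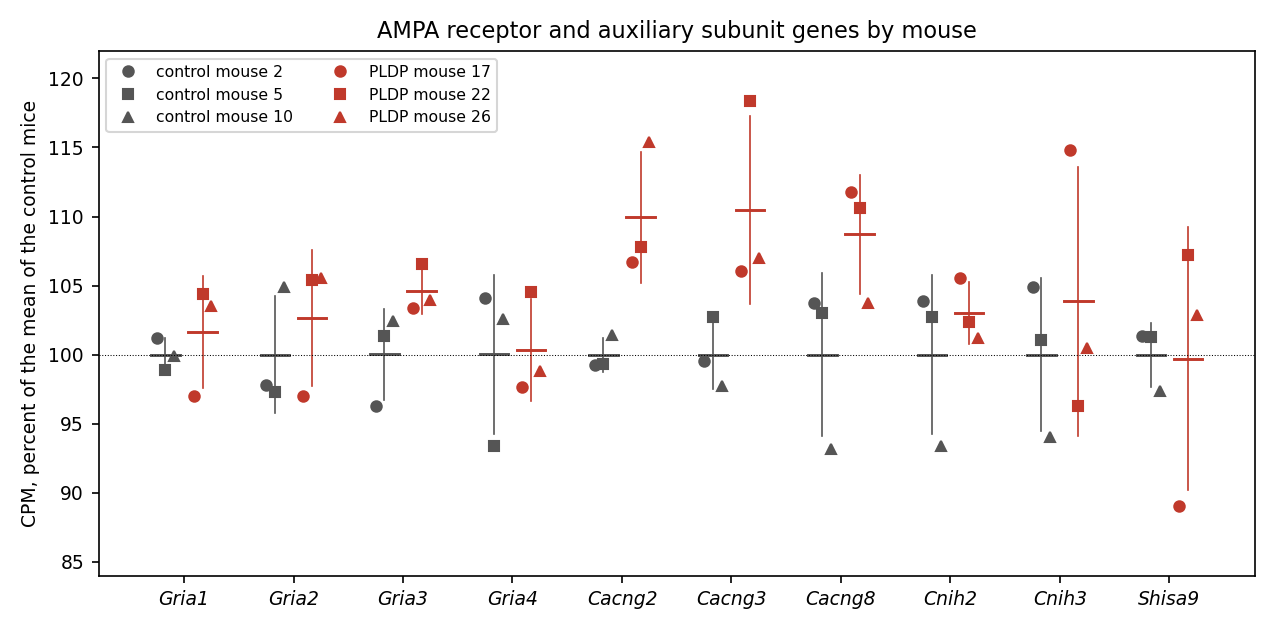
CPM of each gene in each mouse, as a percent of the mean of the 3 control mice. Points are mice (control in gray, PLDP in red), horizontal lines are means and vertical lines are standard deviations. The PLDP mice lay above all control mice in Gria3, Cacng2 and Cacng3, and the diets overlapped in the other 7 genes.

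Among the pore-forming subunits, Gria1 encodes GluA1, the subunit best known for its insertion during long-term potentiation. The gene (ENSMUSG00000020524, chr11:57011387-57330244, plus strand) had 427.0, 417.2 and 421.3 CPM in control mice 2, 5 and 10 and 409.1, 440.3 and 436.8 CPM in PLDP mice 17, 22 and 26. The PLDP mice held both the lowest and the highest value. Its log2 fold change was 0.024 (standard error 0.039, 95% interval -0.058 to 0.11, unadjusted p of 0.551, adjusted p = 0.914), and the interval reached from a change of -3.94% to one of 7.56%.

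Gria2 encodes GluA2, whose transcript is edited at a pore codon so that channels containing it pass little calcium. It had the most counts of the 10 genes, and the gene (ENSMUSG00000033981, chr3:80681450-80802835, minus strand) had 504.4, 502.0 and 540.9 CPM in control mice 2, 5 and 10 and 500.2, 543.7 and 544.6 CPM in PLDP mice 17, 22 and 26. Control mouse 10 lay with PLDP mice 22 and 26, and PLDP mouse 17 lay with control mice 2 and 5. edgeR gave Gria2 a log2 fold change of 0.038 (standard error 0.043, 95% interval -0.052 to 0.13, unadjusted p of 0.387, adjusted p = 0.861). Without PLDP mouse 17 it was 0.078 with an unadjusted p of 0.0384 and an adjusted p of 0.368.

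Gria3 encodes GluA3, which pairs mostly with GluA2. Its gene (ENSMUSG00000001986, chrX:41400854-41678601, plus strand) had 172.4, 181.5 and 183.5 CPM in control mice 2, 5 and 10 and 185.1, 190.8 and 186.2 CPM in PLDP mice 17, 22 and 26. All 3 PLDP mice lay above all 3 control mice, by a gap that was small beside the spread. Gria3 did not pass the threshold, with a log2 fold change of 0.065 (standard error 0.041, 95% interval -0.021 to 0.15, unadjusted p of 0.128, adjusted p = 0.690). Gria4, which encodes the subunit GluA4 of fast-spiking interneurons and cerebellum, (ENSMUSG00000025892, chr9:4417896-4796234, minus strand) had 230.3, 206.7 and 227.0 CPM in control mice 2, 5 and 10 and 216.1, 231.4 and 218.7 CPM in PLDP mice 17, 22 and 26. The PLDP mice lay within the range of the control mice except mouse 22, which exceeded the highest control mouse slightly. For Gria4 the log2 fold change was 0.0054 (standard error 0.046, 95% interval -0.092 to 0.10, unadjusted p of 0.909, adjusted p = 0.986). It turned to -0.042 without control mouse 5 and to -0.027 without PLDP mouse 22.

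The makeup of the pore-forming transcripts was compared by scaling each gene to its exon length in GENCODE M21. On that scale Gria1 took 44.7 ± 0.769% of the summed Gria1 to Gria4 level with the control diet and 44.5 ± 0.342% with PLDP (SD, n = 3 each). The share of Gria2 was 20.65%, 21.17% and 21.86% in control mice 2, 5 and 10 and 21.04%, 21.34% and 21.77% in PLDP mice 17, 22 and 26. The PLDP values lay inside the control range, and an exact two-sided permutation test gave p = 0.8, where 0.1 is the smallest p that 3 against 3 mice allow. The log2 ratio of Gria1 to Gria2 differed by -0.015 between the diets (1.07 ± 0.063 in control mice and 1.06 ± 0.014 in PLDP mice, SD, n = 3 each, exact permutation p = 0.8). Without 1 mouse in turn, the difference in this ratio lay between -0.050 (without control mouse 10) and 0.0097 (without control mouse 2), and that in the Gria2 share between -0.135 (without control mouse 2) and 0.473 percentage points (without control mouse 10). Gria3 took 11.6 ± 0.48% and 11.9 ± 0.29%, and Gria4 took 22.5 ± 0.89% and 22.1 ± 0.49% (SD, n = 3 each). The shares themselves depend on the length used, since the Gria2 share in control mice was 24.7 ± 0.63% with the longest transcript in place of all exons, but its difference between the diets was below the spread between mice with either length.

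The TARP genes were the members that were called higher. Cacng2 encodes stargazin, the founding TARP, which delivers AMPA receptors to the synaptic surface. The gene (ENSMUSG00000019146, chr15:77991748-78120028, minus strand) had 118.6, 118.7 and 121.2 CPM in control mice 2, 5 and 10 and 127.5, 128.8 and 137.9 CPM in PLDP mice 17, 22 and 26. All PLDP mice lay above all control mice, and mouse 26 was highest. Cacng2 was higher by 9.90% (interval 3.01% to 17.2%), a log2 fold change of 0.14 (standard error 0.044, 95% interval 0.043 to 0.23, unadjusted p of 0.00683, adjusted p = 0.367). In a short stretch of 323 bases its exons overlap A730060N03Rik on the opposite strand, and whether the counting used strand is not given in the sources used here.

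Cacng3 encodes a TARP of cortical neurons. Its gene (ENSMUSG00000066189, chr7:122670492-122769393, plus strand) had 56.5, 58.3 and 55.5 CPM in control mice 2, 5 and 10 and 60.2, 67.2 and 60.8 CPM in PLDP mice 17, 22 and 26. The diets did not overlap, and PLDP mouse 22 stood above the other PLDP mice. Cacng3 was higher by 10.6%, a log2 fold change of 0.14 (standard error 0.054, 95% interval 0.03 to 0.26, unadjusted p of 0.0167, adjusted p = 0.449). Cacng8 encodes the TARP that is most abundant in the hippocampus. That gene (ENSMUSG00000053395, chr7:3390683-3415648, plus strand) had 63.9, 63.5 and 57.4 CPM in control mice 2, 5 and 10 and 68.9, 68.1 and 63.9 CPM in PLDP mice 17, 22 and 26. The diets overlapped, since PLDP mouse 26 was at the level of control mice 2 and 5, and control mouse 10 was the lowest. Cacng8 was higher by 8.76%, a log2 fold change of 0.12 (standard error 0.055, 95% interval 0.0056 to 0.24, unadjusted p of 0.0410, adjusted p = 0.560). The highest PLDP mouse was thus a different one for each TARP gene, mouse 26 for Cacng2, mouse 22 for Cacng3 and mouse 17 for Cacng8.

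Some of these calls were lost when 1 mouse was left out, which also leaves fewer mice for the test. Cacng2 lost its call without PLDP mouse 26 (log2 fold change 0.10, unadjusted p of 0.0626). Cacng3 lost it at a log2 fold change of 0.14 without control mouse 2 (unadjusted p of 0.0520), 0.13 without control mouse 10 (0.0616) and 0.089 without PLDP mouse 22 (0.127). Cacng8 lost it at a log2 fold change of 0.072 without control mouse 10 (unadjusted p of 0.229), 0.10 without PLDP mouse 17 (0.0780), 0.11 without PLDP mouse 22 (0.104) and 0.12 with DESeq2 (0.0634). The number of called members fell to 1 without control mouse 10 or PLDP mouse 22, fits in which 4.93% and 4.2% of all features were higher.

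**Figure D2:**
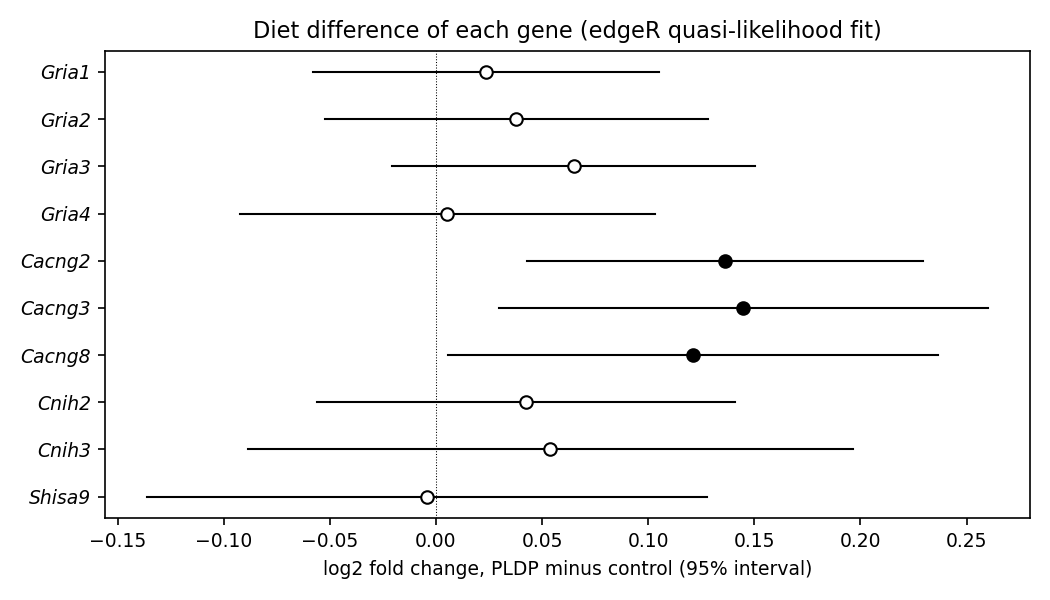
Log2 fold change of each gene (PLDP minus control) with its 95% interval from edgeR's quasi-likelihood fit, filled where the unadjusted p was under 0.05. The intervals of Cacng2, Cacng3 and Cacng8 lay above 0, with Cacng8 nearest to it at 0.0056, and those of the other 7 genes included 0.

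For each mouse the counts of Cacng2, Cacng3 and Cacng8 were summed and set against the summed counts of Gria1 to Gria4, a ratio that was chosen after the values had been seen and was therefore not tested. It was 17.92%, 18.39% and 17.06% in control mice 2, 5 and 10 and 19.58%, 18.78% and 18.95% in PLDP mice 17, 22 and 26. PLDP mouse 17, the lowest of the PLDP mice for all 4 Gria genes, had the highest ratio. The summed level of Cacng2, Cacng3 and Cacng8 was 234.2 to 240.5 CPM with the control diet and 256.6 to 264.1 CPM with PLDP. The summed Gria level was 1307 to 1373 CPM and 1311 to 1406 CPM and overlapped between the diets. The sum and the ratio hold only TARP genes that were called higher and leave out Cacng4, Cacng5 and Cacng7. Mean CPM with the control diet and with PLDP was 176.0 and 176.5 for Cacng7, 43.3 and 45.4 for Cacng4, and 36.0 and 32.7 for Cacng5. A ratio with all tested TARP genes was not computed.

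**Figure D3:**
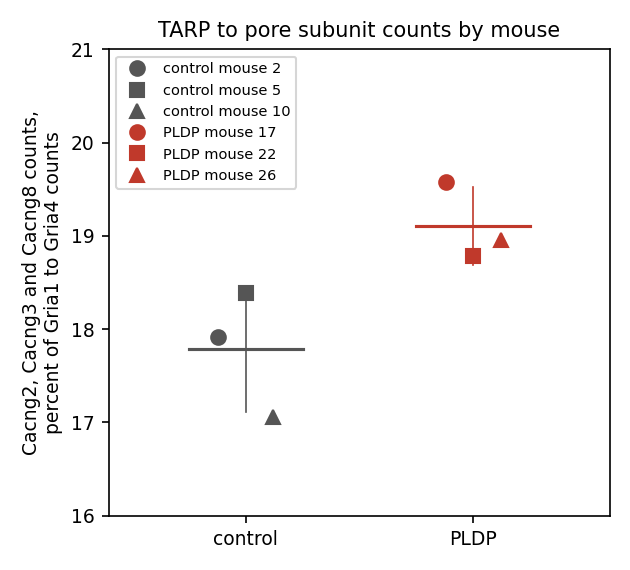
Summed counts of Cacng2, Cacng3 and Cacng8 as a percent of the summed counts of Gria1 to Gria4 in each mouse, with the mean and standard deviation of each diet. The sum leaves out Cacng4, Cacng5 and Cacng7. The vertical axis starts at 16%. The PLDP mice lay between 18.78% and 19.58% and the control mice between 17.06% and 18.39%.

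The sequences around the start sites of Cacng2 and Cacng8, which were called, and of Gria2, which was not, are shown as examples. Windows from 250 bases before to 50 bases after the start in RefSeq (build GRCm38.p6) were present for 7 of the 10 genes. Those of these 3 genes are printed 5′ to 3′ on the strand of the gene, with CpG dinucleotides in capitals.
Cacng2 (chr15:78119231-78119530, minus strand): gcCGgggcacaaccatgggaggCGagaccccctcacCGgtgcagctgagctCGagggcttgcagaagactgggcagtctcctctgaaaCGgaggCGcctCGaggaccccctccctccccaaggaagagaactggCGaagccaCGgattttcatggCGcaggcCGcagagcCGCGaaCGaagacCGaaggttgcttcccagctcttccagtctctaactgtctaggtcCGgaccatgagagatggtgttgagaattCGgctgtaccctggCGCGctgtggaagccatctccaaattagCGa
Cacng8 (chr7:3393792-3394091, plus strand): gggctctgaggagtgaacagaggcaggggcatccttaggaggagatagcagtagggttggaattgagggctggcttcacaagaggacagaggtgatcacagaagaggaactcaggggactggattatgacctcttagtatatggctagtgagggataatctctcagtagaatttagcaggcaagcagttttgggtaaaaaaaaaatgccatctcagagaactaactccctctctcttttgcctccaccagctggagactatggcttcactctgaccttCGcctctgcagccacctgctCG
Gria2 (chr3:80802786-80803085, minus strand): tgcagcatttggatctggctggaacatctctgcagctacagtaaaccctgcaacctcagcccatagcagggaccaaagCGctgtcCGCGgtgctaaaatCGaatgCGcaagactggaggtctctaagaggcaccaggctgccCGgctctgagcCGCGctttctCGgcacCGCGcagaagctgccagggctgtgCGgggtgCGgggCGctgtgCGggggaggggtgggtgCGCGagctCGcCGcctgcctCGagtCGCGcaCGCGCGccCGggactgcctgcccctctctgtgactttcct
The windows of Cacng2 and Cacng8 held 20 and 2 CpG dinucleotides and that of Gria2 held 26, against a median of 7 over 32841 promoter windows of the same length. Their GC content was 61.0%, 50% and 65.7%, against a median of 52.7%. The start sites that RefSeq gives lie 748 and 3359 bases inside the start of the Cacng2 and Cacng8 genes in GENCODE M21, and the Gria2 site coincides with it, so the windows of Cacng2 and Cacng8 need not be the ones used in the brain. Both strands were searched for the CRE core TGACG, the GC box GGGCGG, the NRF1 core TGCGCA, the TATA box TATAAA and the E-box CACGTG. None of these letters occurred in the windows of Cacng2 and Cacng8, and the Gria2 window held 1 NRF1 core. Over all promoter windows 20.8% held the CRE core, 35.7% the GC box, 7.76% the NRF1 core, 13.6% the TATA box and 7.15% the E-box.

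The cornichon genes and Shisa9 were not called. Cnih2, the main cornichon of hippocampal pyramidal cells, (ENSMUSG00000024873, chr19:5092868-5098521, minus strand) had 146.2, 144.5 and 131.4 CPM in control mice 2, 5 and 10 and 148.5, 144.0 and 142.4 CPM in PLDP mice 17, 22 and 26. Control mouse 10 was the lowest and the other 5 mice lay close together. For Cnih2 the log2 fold change was 0.043 (standard error 0.047, 95% interval -0.056 to 0.14, unadjusted p of 0.375, adjusted p = 0.855), and without control mouse 10 it was -0.0053. Cnih3, its close paralog, (ENSMUSG00000026514, chr1:181352628-181460641, plus strand) had 46.0, 44.4 and 41.3 CPM in control mice 2, 5 and 10 and 50.4, 42.3 and 44.1 CPM in PLDP mice 17, 22 and 26. PLDP mouse 17 was the highest and the other PLDP mice lay within the control range. That of Cnih3 was 0.054 (standard error 0.068, 95% interval -0.088 to 0.20, unadjusted p of 0.435, adjusted p = 0.879), and without PLDP mouse 17 it was -0.026.

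Shisa9 encodes an auxiliary subunit that is known from dentate gyrus granule cells. The gene (ENSMUSG00000022494, chr16:11984113-12270902, plus strand) had 59.3, 59.2 and 56.9 CPM in control mice 2, 5 and 10 and 52.1, 62.7 and 60.2 CPM in PLDP mice 17, 22 and 26, so that the PLDP mice lay on both sides of the control mice. For Shisa9 the log2 fold change came to -0.004 (standard error 0.062, 95% interval -0.14 to 0.13, unadjusted p of 0.949, adjusted p = 0.993), and it turned to 0.072 without PLDP mouse 17. Mouse 17 was thus the lowest of all 6 mice for Gria1, Gria2 and Shisa9 and the highest for Cnih2, Cnih3 and Cacng8.

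Per kilobase of exon, the levels of the 10 genes were ranked. Cnih2 was highest with a mean of 104.3 CPM per kilobase over the 6 mice (range 96.0 to 108.4), followed by Gria1 with 70.4 (67.7 to 72.9), and neither range met that of its neighbor. Gria4 with 35.2 (32.8 to 36.7) and Gria2 with 33.6 (32.2 to 35.0) overlapped, and their order turned when the longest transcript was used as the length (40.8 for Gria4 and 50.4 for Gria2). Cacng8 with 27.4 (24.5 to 29.4), Cacng2 with 22.8 (21.5 to 25.04) and Cacng3 with 21.5 (20 to 24.2) formed a chain of overlapping ranges. Gria3 had 18.6 CPM per kilobase with all exons and 35.2 with the longest transcript, which moved its mean from below those of the TARP genes to above them. Cnih3 with 16.3 (15 to 18.3) overlapped Gria3 (17.5 to 19.4), and Shisa9 with 11.1 (9.93 to 11.97) was lowest and apart. Cnih3 and Shisa9 held the lowest places with either length.

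The genes whose levels over the 6 mice followed a member most closely were found by the root mean square difference of mean-centered log2 CPM. For Gria2 these were Smc3 (0.0096), Rc3h2 (0.0111) and Ddx6 (0.0118), against a median of 0.103 over the genes compared. In each of them, as in Gria2, control mouse 10 lay with PLDP mice 22 and 26. For Cacng2, the member with the smallest p, they were Sobp (0.0149), Actb (0.0181) and Gal3st3 (0.0191), against a median of 0.117. Actb, a common reference gene in expression assays, had 679.1, 699.1 and 692.8 CPM with the control diet and 735.8, 759.8 and 799.5 CPM with PLDP, a log2 fold change of 0.15. These genes were picked for their likeness, so no test is given of it or of their difference between the diets.

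Other genes that act on AMPA receptors were taken from 5 lists, of which 56 of 59 genes were tested. At an unadjusted p under 0.05, 8 of the 56 were higher and 4 lower with PLDP, against 4.91% and 3.69% of all features, and 0 passed after adjustment. Their median log2 fold change was 0.0077, and 0.034 without PLDP mouse 17. The number of lower genes fell to 1 without control mouse 2, to 2 without control mouse 5 and to 1 with offsets for GC content and exon length. Without PLDP mouse 17, 13 were higher and 3 lower, and 6 passed an adjusted p of 0.05, as did 182 of all features tested in that fit, against 6 with all mice. The lowest counts of the lists need care, since Prrt2, Pick1, Ppp3r1 and Nptxr, which share exons with another protein-coding gene of the same strand, had 0, 55, 30 and 129 counts over all 6 mice, and how the counting treated reads shared between genes is not given in the sources used here. The members share no more than 111 bases of exon with any annotated gene of their strand, and the 323 bases of Cacng2 are the longest overlap on the other strand.

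Among 16 further auxiliary subunit genes tested, 2 were higher and 1 lower, with a median log2 fold change of 0.0014. Over all features, 4.91% were higher and 3.69% lower. Without PLDP mouse 17, 2 were higher and 0 lower, with a median of 0.013, against 6.86% and 5.69% of all features. Shisa7, which encodes a relative of Shisa9 that also binds inhibitory GABA-A receptors, had 110.9, 109.4 and 116.1 CPM with the control diet and 121.3, 135.8 and 123.6 CPM with PLDP (log2 fold change 0.18, unadjusted p of 0.00201, adjusted p = 0.282). Prrt1, which encodes a receptor partner also called SynDIG4, had 138.7, 133.1 and 139.2 CPM with the control diet and 152.1, 147.8 and 148.5 CPM with PLDP (log2 fold change 0.13, unadjusted p of 0.00713, adjusted p = 0.368). In both genes all PLDP mice lay above all control mice. Cacng5, a TARP of a different type, was lower, with 37.4, 33.6 and 37.0 CPM with the control diet and 31.7, 34.3 and 32.2 CPM with PLDP (log2 fold change -0.14, unadjusted p of 0.0466, adjusted p = 0.568). The other TARP genes Cacng4 and Cacng7 had log2 fold changes of 0.065 and 0.0045 (unadjusted p of 0.238 and 0.915), so that no rise was called in 3 of the 6 TARP genes tested. Olfm1, the gene of a secreted partner with the highest level in this list, had 726.2 ± 13.9 CPM with the control diet and 763.5 ± 18.1 CPM with PLDP (SD, n = 3 each, log2 fold change 0.072, unadjusted p of 0.0539, adjusted p = 0.590).

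Of the 5 genes for assembly in the endoplasmic reticulum, 0 were higher and 1 was lower, against 4.91% and 3.69% of all features. Without PLDP mouse 17, 1 was higher and 1 lower, against 6.86% and 5.69% of all features. The lower gene with all mice was Sacm1l, a phosphoinositide phosphatase, with 101.0, 101.4 and 96.8 CPM with the control diet and 90.3, 91.6 and 93.5 CPM with PLDP (log2 fold change -0.12, unadjusted p of 0.0153, adjusted p = 0.449). Frrs1l, an assembly factor and the most abundant of these genes, had 264.2 ± 7.31 CPM with the control diet and 265.7 ± 18.2 CPM with PLDP (SD, n = 3 each, log2 fold change 0.0083, unadjusted p of 0.863, adjusted p = 0.979). Of 21 scaffold and trafficking genes, 4 were higher and 1 lower, with a median of -0.0075 that turned to 0.020 without PLDP mouse 17, where 5 were higher and 1 lower. Nptx2, a secreted pentraxin that clusters AMPA receptors, had 42.1, 42.5 and 45.8 CPM with the control diet and 46.8, 55.0 and 55.9 CPM with PLDP (log2 fold change 0.27, unadjusted p of 0.000786, adjusted p = 0.194). Dlg4, which encodes PSD-95, the scaffold that TARPs bind, had 493.4, 489.6 and 478.5 CPM with the control diet and 507.8, 539.1 and 546.9 CPM with PLDP (log2 fold change 0.12, unadjusted p of 0.00445, adjusted p = 0.326). In these genes the diets did not overlap. Rab11a, a GTPase of recycling endosomes, was lower, with 88.3 ± 2.96 CPM with the control diet and 81.3 ± 1.57 CPM with PLDP (SD, n = 3 each, log2 fold change -0.12, unadjusted p of 0.0196, adjusted p = 0.464). The vesicle fusion ATPase Nsf, the most abundant of the list, had 715.5 ± 11.6 CPM with the control diet and 703.4 ± 20.2 CPM with PLDP (SD, n = 3 each, log2 fold change -0.025, unadjusted p of 0.494, adjusted p = 0.897).

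Of 11 kinase and phosphatase genes, 2 were higher and 1 lower, against 4.91% and 3.69% of all features. These counts were 5 and 1 when PLDP mouse 17 was left out, against 6.86% and 5.69% of all features. Camk2a, the kinase that phosphorylates GluA1 and TARPs and the most abundant of the list, was higher, with 1558 ± 7.57 CPM with the control diet and 1672 ± 51.6 CPM with PLDP (SD, n = 3 each, log2 fold change 0.10, unadjusted p of 0.00574, adjusted p = 0.350). All PLDP mice lay above all control mice in this gene. Prkacb, a catalytic subunit of protein kinase A, was lower, with 382.9 ± 5.20 CPM with the control diet and 354.8 ± 12.2 CPM with PLDP (SD, n = 3 each, log2 fold change -0.11, unadjusted p of 0.0108, adjusted p = 0.421). None of the 3 RNA editing genes was called, and Adarb1, the enzyme that edits Gria2, had 314.7 ± 5.17 CPM with the control diet and 315.1 ± 12.6 CPM with PLDP (SD, n = 3 each, log2 fold change 0.0019, unadjusted p of 0.963, adjusted p = 0.995).

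**Figure D4:**
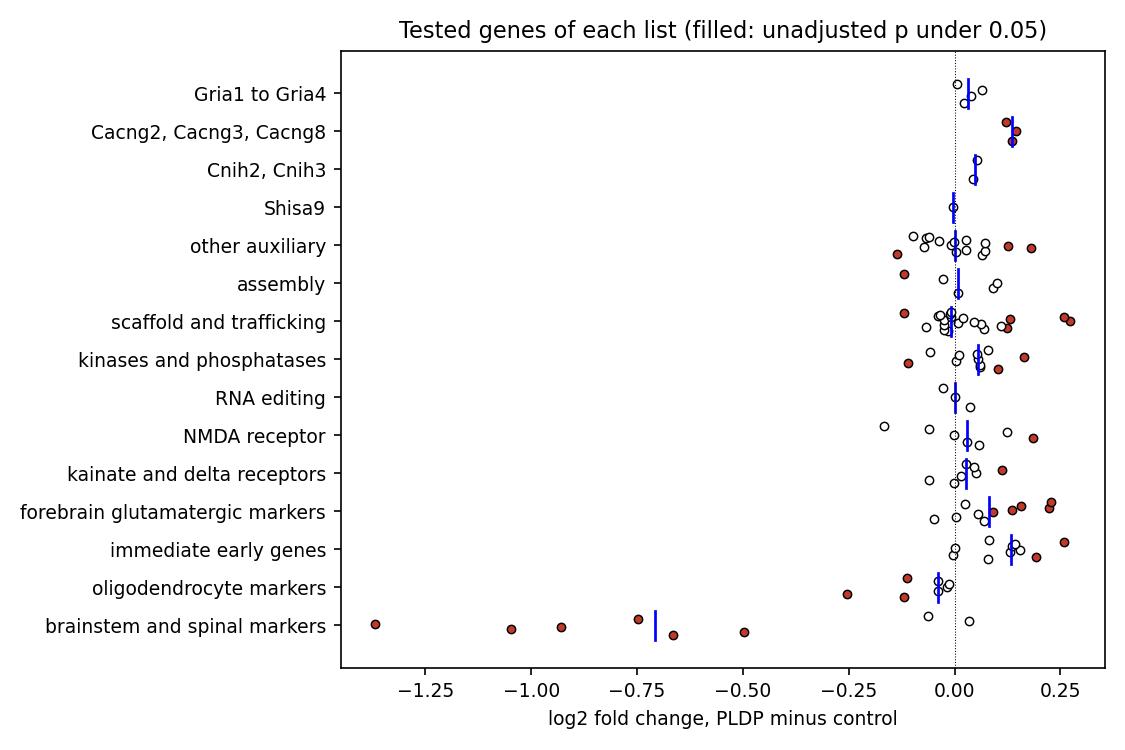
Log2 fold change (PLDP minus control) of each tested gene in each list, filled in red where the unadjusted p was under 0.05, with the median of each list as a vertical line. All 3 genes of the Cacng2, Cacng3 and Cacng8 row are filled, 0 of the 4 Gria genes are, and the brainstem and spinal markers lie farthest to the left with a median of -0.71.

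In the other ionotropic glutamate receptor families, 1 of 7 NMDA receptor genes and 1 of 7 kainate and delta receptor genes were higher and 0 were lower, against 4.91% and 3.69% of all features. Without PLDP mouse 17 1 gene was called in the NMDA list and 0 in the kainate and delta list. The NMDA receptor gene was Grin2b, with 187.6 ± 10.2 CPM with the control diet and 213.3 ± 16.6 CPM with PLDP (SD, n = 3 each, log2 fold change 0.18, unadjusted p of 0.00326, adjusted p = 0.306). Grin1, the obligatory NMDA subunit, had 492.4 ± 9.30 CPM with the control diet and 512.6 ± 5.21 CPM with PLDP (SD, n = 3 each, log2 fold change 0.058, unadjusted p of 0.117, adjusted p = 0.678). The kainate receptor gene was Grik5, with 192.0 ± 8.18 CPM with the control diet and 207.6 ± 9.83 CPM with PLDP (SD, n = 3 each, log2 fold change 0.11, unadjusted p of 0.0236, adjusted p = 0.492). Whether the TARP genes differ in this from the other families was not tested.

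Markers of some brain regions and cell types were also called between the diets. Over all features tested, 4.91% were called higher and 3.69% lower with all mice. Of 10 forebrain glutamatergic markers, 5 were higher, including Bcl11b (log2 fold change 0.16), Fezf2 (0.22) and Cux2 (0.14), and 0 were lower, and their summed level was 2117 to 2253 CPM with the control diet and 2307 to 2336 CPM with PLDP. Of 8 brainstem and spinal cord markers, 6 were lower, including Slc6a5 (-0.66), Glra1 (-0.50) and Hoxb3 (-1.05), with summed levels of 340.2 to 376.9 CPM and 258.2 to 325.9 CPM. Of 7 oligodendrocyte markers, 3 were lower and 0 higher, with summed levels of 5173 to 5561 CPM and 4813 to 5438 CPM. Choroid plexus markers were lower in 2 of 6, with a median log2 fold change of -0.20 and summed levels of 741.5 to 800.4 CPM and 581.8 to 740.2 CPM that did not overlap. Most of this sum was Ttr (708.4 ± 25.9 CPM with the control diet and 607.4 ± 67.7 CPM with PLDP, SD, n = 3 each), and without PLDP mouse 17 the median was -0.056, with 1 of 6 lower and 3 of 6 above 0. Among markers of oligodendrocyte precursors 2 of 6 were lower with all mice, and 3 were lower and 1 higher without PLDP mouse 17. Among markers of endothelium 2 of 6 were higher, with summed levels of 161.5 to 173.6 CPM and 174.8 to 179.0 CPM. Astrocyte and microglia markers had 1 of 7 lower each. None of the 7 cerebellar granule cell markers was lower and 1 was higher, 0 of 9 interneuron, 6 Purkinje cell, 5 Bergmann glia and 6 thalamus and midbrain markers were called, and 1 of 7 hippocampal markers, Zbtb20, was higher (0.25). Without PLDP mouse 17, where 6.86% of all features were higher and 5.69% lower, 2 of 7 granule cell markers were lower and 1 was higher. Of the interneuron markers 2 of 9, of the Bergmann glia markers 2 of 5 and of the Purkinje cell markers 1 of 6 were then lower, 2 of 6 thalamus and midbrain markers were higher, and 3 of 7 astrocyte markers were lower and 1 was higher. In that fit 5 of 10 forebrain glutamatergic markers were higher and 5 of 8 brainstem and spinal cord markers were lower. No marker in these lists was at 0 in every mouse. The part of these marker differences in the higher levels of Cacng2, Cacng3 and Cacng8 was not tested.

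**Figure D5:**
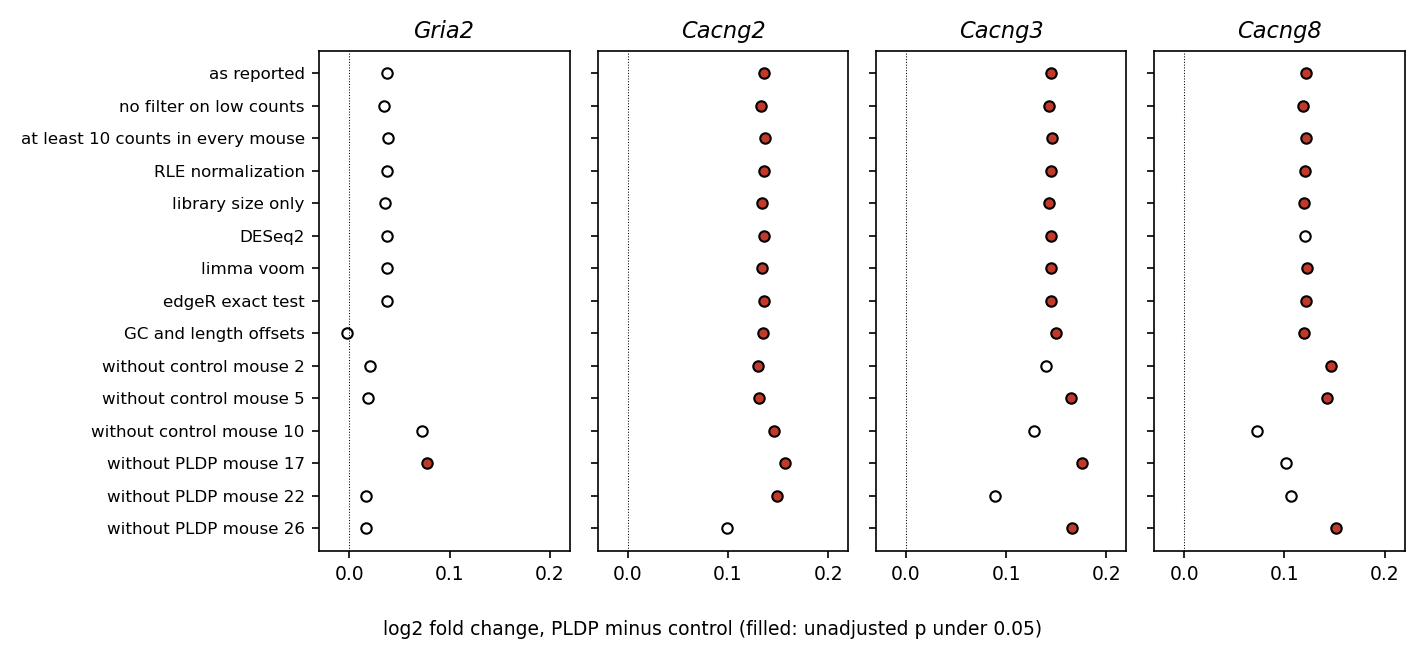
Log2 fold change (PLDP minus control) of Gria2, Cacng2, Cacng3 and Cacng8 under each way of processing the counts and without each mouse in turn, filled where the unadjusted p was under 0.05. The TARP genes stayed above 0 throughout, between 0.072 and 0.18, and Gria2 lay between -0.0027 and 0.078.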

How the data were processed

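Libraries of polyadenylated RNA from 6 whole brains were made with a stranded kit by the authors, who deposited 1 file per mouse of raw counts per gene (whole numbers, not normalized). The submitters' processing notes list cutadapt 2.9, HISAT2 2.2.0, featureCounts 2.6.0 and DESeq2 1.6.3 and the builds GRCm38 and GRCh38. The strand setting and the annotation are not given in the sources used here. Of 55034 Ensembl identifiers, 54777 were found in GENCODE M21 (GRCm38), and 5320 numbered features without an identifier were kept in the tests. Diets were taken from the labels.

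The statistics were done in R 4.3.3. The low-count filter was filterByExpr of edgeR 4.0.16 (minimum count 10, minimum total 15), TMM gave the scaling, and diet was tested by quasi-likelihood (glmQLFit, glmQLFTest) without other terms. The threshold for a call was an unadjusted p of 0.05, and Benjamini-Hochberg values over all features are given beside it. Standard errors are the log2 fold change divided by the square root of F, and intervals use the residual and prior degrees of freedom. CPM are scaled to the library total after TMM. Tables were made in Python 3.11.15 with pandas 2.3.3 and scipy 1.17.1. The fit was also run on simulated data, and no result given here rests on that run.

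The alternatives were no filter, at least 10 counts in every mouse, RLE factors, library size only, DESeq2 1.42.0, limma voom 3.58.1, edgeR's exact test, offsets from splines of 5 degrees of freedom on GC content and exon length, and leaving out each mouse. The longest transcript as length and the counts of single lists and of markers without PLDP mouse 17 are alternatives chosen after seeing the data. So is the ratio of summed Cacng2, Cacng3 and Cacng8 counts to Gria counts. The members and lists were chosen with earlier results of these data known. Named genes are the 10 members, in each other list up to 3 called genes with the smallest p (in the marker lists, a selection of these) and, for the receptor and pathway lists, the most abundant gene, and the 3 genes most like Gria2 and most like the member with the smallest p. Prrt2, Pick1, Ppp3r1, Nptxr, Cacng4 and Cacng7 fall outside this rule and were chosen with their values known. One gene that this rule names is not reported here, and promoter windows are shown for 3 of the 7 members that have one.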

Additional observations from a re-analysis of the deposited data

How the results depend on the processing

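Cacng2 and Cacng3 kept their direction and call under all 8 alternatives to the filter, scaling, test and gene properties, and Cacng8 under 7 of them, with a log2 fold change of 0.12 and an unadjusted p of 0.0634 in DESeq2. With offsets for GC content and exon length, Gria2 was at -0.0027 and Shisa9 at 0.0016, and 1 gene of the pathway lists was lower. Leaving out 1 mouse gave log2 fold changes of 0.0996 to 0.157 for Cacng2, 0.0892 to 0.175 for Cacng3, 0.0722 to 0.151 for Cacng8, 0.0021 to 0.0564 for Gria1, 0.0164 to 0.0776 for Gria2, 0.0365 to 0.0815 for Gria3, -0.0422 to 0.0336 for Gria4, -0.0053 to 0.0696 for Cnih2, -0.0255 to 0.107 for Cnih3 and -0.0639 to 0.0724 for Shisa9. It gave 1 to 3 members called higher, and 6 to 13 higher and 1 to 4 lower pathway genes. The difference in the Gria2 share ran from -0.135 to 0.473 percentage points and that in the log2 ratio of Gria1 to Gria2 from -0.050 to 0.0097. Over all features, 640 to 1293 were higher and 493 to 1072 lower when 1 mouse was left out. With DESeq2 564 features were higher and 362 lower, and with no filter on low counts 1314 were higher and 1046 lower. The lowest adjusted p of any member under any of these settings was 0.0892, for Cacng2 without PLDP mouse 17. The median log2 fold change of all features stayed between -0.0048 and -9.0e-05 under these settings. The cause of these shifts was not tested. No paired analysis was possible because the mouse numbers of the diets do not overlap. Each member had 825 or more counts in every mouse, and the share of counting error in the spread between mice was not tested.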

Other observations

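Genes induced rapidly by neuronal firing (immediate early genes) split the PLDP mice. With all mice, 2 of 10 were higher and 0 lower, and Arc, which promotes the removal of AMPA receptors from the surface, had 206.6, 215.8 and 190.6 CPM in control mice 2, 5 and 10 and 183.5, 253.5 and 297.4 CPM in PLDP mice 17, 22 and 26. Without PLDP mouse 17, 8 of the 10 were higher, where the share of all features called higher also rose, from 4.91% to 6.86%. Among the single mice left out, only the omission of mouse 17 brought a call for Gria2.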
